A study of Mus musculus with 3 samples.

Results

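The expression of 8 genes of the cell-cycle machinery was followed across the cells of the mouse atrium: the D-type cyclins Ccnd1, Ccnd2 and Ccnd3, their partner kinase Cdk4, the neuronal kinase Cdk5 with its activator Cdk5r1, and the inhibitors Cdkn1a (p21) and Cdkn1b (p27). They are 8 of the 30406 genes that the 3 deposited count matrices share, and they were chosen by name. The only measured values that enter the choice of cells are those of other genes, namely the markers of the gates. The data come from single-cell RNA sequencing (10x Chromium 3′ V3) of sorted cells from the atria of Baf53b-cre;lox-GFP mice, females and males, in which Cre expressed from the neuronal Actl6b (Baf53b) gene switches on GFP. There is 1 library each from the anterior section of the atria (age 3 months), from the posterior section (4 months) and from atria with no section named (2 months). The last is called mixed here, since the protocol in the labels mentions mixed samples of pooled ganglia, and hearts of several mice were pooled for the isolation. All cells carry the same alleles and no treatment is labelled, so every test is between kinds of cell within a library, and region cannot be told apart from library and labelled age. The labels do not say whether the libraries share animals, and the p-values measure the spread between the 3 libraries, which may in part be technical.

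A barcode was taken as a neuron when it held at least 10000 unique molecular identifiers (UMIs, each a single counted RNA molecule) and at least 1 UMI each of Snap25, Prph and Stmn2. This gave 1315 anterior, 1447 posterior and 1998 mixed neurons, 4760 of 8361 barcodes in all. The neurons were divided by the neuropeptide gene Npy, by Ddah1, which encodes an enzyme that breaks down inhibitors of nitric oxide synthase, and by Nos1, the neuronal nitric oxide synthase gene. Ddah1 neurons (at least 1 UMI of Ddah1 per 10000, Npy under 4 and Nos1 under 1) numbered 103, 436 and 336 in the anterior, posterior and mixed libraries. Nos1 neurons (at least 1 UMI of Nos1 per 10000, whatever Npy and Ddah1) numbered 84, 61 and 55, and Npy neurons (at least 4 UMIs of Npy per 10000, with Ddah1 and Nos1 under 1) numbered 1047, 760 and 1504. Glia (165, 157 and 87 barcodes), fibroblasts (85, 149 and 99) and macrophages (15, 41 and 25) were gated by at least 3 detected markers of their own class. Throughout, a level is the number of UMIs of a gene per 10000 UMIs of all genes, summed over the cells of a class in 1 library. UMIs are counted at the 3′ end of a transcript, so they were not divided by length.

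The anterior, posterior and mixed libraries held 55329380, 86391988 and 119825307 UMIs, and a neuron held a median of 39854, 57151 and 57062.5 UMIs in them. A glial barcode held a median of 2147, 3778 and 3105. The summed level of Snap25, Prph and Stmn2, which the gate itself uses, was 98.1 in anterior, 92.0 in posterior and 102 in mixed neurons. All 9 glial markers were present in neurons, at a summed level of 2.82, 2.69 and 4.89, against 132, 152 and 224 in glia. Some barcodes stood apart. In 62 gated neurons, 55 of them posterior, Snap25, Prph and Stmn2 together were under 20 per 10000, and in the 55 posterior ones the fibroblast markers summed to 54.6 and the macrophage markers to 30.9. Where stated, results that rest on them are given with and without these barcodes. Between any pair of libraries 2 or 3 cell barcodes were shared.

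D-type cyclins bind Cdk4 or Cdk6, and the active complex phosphorylates the retinoblastoma protein, which lets E2F factors switch on the genes of DNA replication. Cdkn1a and Cdkn1b belong to the Cip/Kip family: they bind and restrain cyclin-kinase complexes, and Cdkn1a is a classical target of p53. Cdk5 resembles the cell-cycle kinases in sequence, but it is switched on by p35 (Cdk5r1) or p39 (Cdk5r2) rather than by a cyclin, and it acts in neurons that no longer divide, where it regulates the cytoskeleton and synapses. Intrinsic cardiac neurons are postmitotic cells of neural crest origin, while the glia, fibroblasts and macrophages around them keep the ability to divide.

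Ccnd1 was the leading D-type cyclin of these neurons. The gene lies at chr7:144929931-144939925 on the minus strand of GRCm38, Ccnd2 at chr6:127125162-127152193 on the minus strand and Ccnd3 at chr17:47505051-47599691 on the plus strand. The Ccnd1 level was 1.45 (95% interval 1.41 to 1.48) in anterior, 1.51 (1.48 to 1.54) in posterior and 1.71 (1.69 to 1.74) in mixed neurons. Here and below the intervals are exact Poisson intervals that cover counting error only. Ccnd3 stood at 0.264, 0.247 and 0.202 in the same neurons, and Ccnd2 at 0.0235, 0.0542 and 0.0159. Among the UMIs of the 3 genes, Ccnd1 held 83.4% in anterior, 83.4% in posterior and 88.7% in mixed neurons. Its share was lower in every other class named here: 52.9%, 37.1% and 66.7% in glia, 14.7%, 20% and 16.6% in fibroblasts, and 61.1%, 40.0% and 51.6% in macrophages. Fibroblasts were led by Ccnd2, which held 59.5%, 50.6% and 60.5% of their D-type cyclin UMIs. Glia held all 3 genes, with shares that differed between the libraries.

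**Figure D1:**
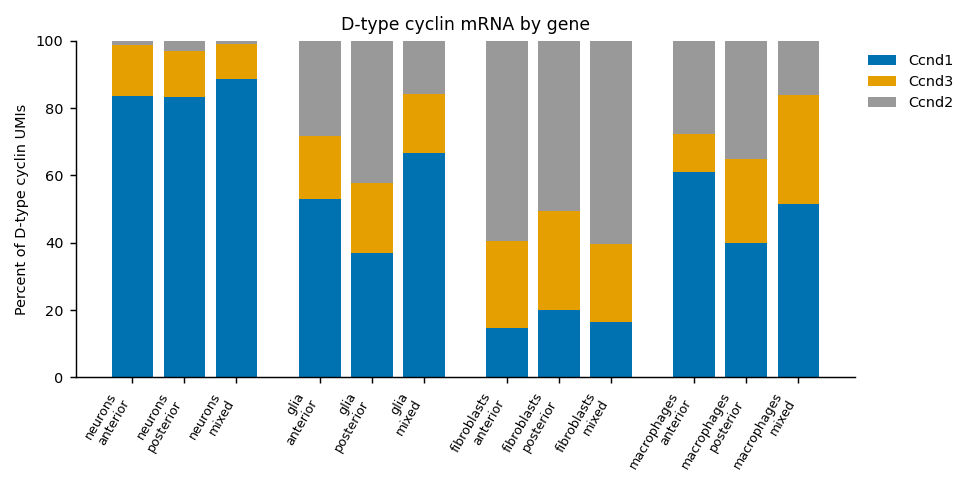
Share of Ccnd1, Ccnd2 and Ccnd3 among the UMIs of the 3 D-type cyclin genes (vertical axis, percent) in neurons, glia, fibroblasts and macrophages of each library. Ccnd1 fills 83.4% to 88.7% of the bar in neurons and 14.7% to 20% in fibroblasts, where Ccnd2 is the largest part.

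Set against fibroblasts, all 8 genes differed in neurons, 3 of them higher and 5 lower, where 56.1% of 13923 genes passed the same test (30.4% higher, 25.7% lower). The median log2 difference of the 8 was -1.12, against 0.16 over all genes. Ccnd1 was higher in neurons, at 1.45, 1.51 and 1.71 in anterior, posterior and mixed neurons, against 0.449, 0.515 and 0.525 in fibroblasts. The groups did not overlap, and the difference was 3.38-fold (log2 1.76 ± 0.23 SE, n = 3 libraries, edgeR adjusted p = 1.04e-08). Ccnd2 went the other way, with levels of 0.0235, 0.0542 and 0.0159 in neurons and 1.82, 1.30 and 1.92 in fibroblasts (log2 -5.77 ± 0.50, edgeR adjusted p = 0.000297). Its log2 difference ran from -6.51 to -5.28 over the alternatives described at the end, which include neurons without the barcodes of few neuronal markers. Ccnd3 and Cdk4 were also lower in neurons, by log2 -1.57 ± 0.23 and -1.44 ± 0.21 (edgeR adjusted p = 1.14e-07 and 1.64e-07). The order of the D-type cyclins was Ccnd1, Ccnd3, Ccnd2 in neurons and Ccnd2, Ccnd3, Ccnd1 in fibroblasts, in each of the 3 libraries.

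Set against glia, 7 of the 8 genes differed, 2 higher and 5 lower in neurons, where 58.9% of 13651 genes passed (32.9% higher, 26% lower). With library totals in place of TMM scaling factors, the median over all genes was -0.12 in place of 0.21, and the calls were 3495 higher and 4228 lower in place of 4491 higher and 3548 lower. Ccnd1 is the member that did not pass. Its level was 1.45, 1.51 and 1.71 in anterior, posterior and mixed neurons and 2.39, 1.21 and 2.86 in glia, so it was lower in neurons of the anterior and mixed libraries and higher in those of the posterior one (log2 -0.03 ± 0.22, edgeR adjusted p = 0.933). Ccnd2 was 0.0235, 0.0542 and 0.0159 in neurons, against 1.27, 1.38 and 0.684 in glia (log2 -4.89 ± 0.24, edgeR adjusted p = 3.27e-93). Without the barcodes of few neuronal markers, Ccnd2 in posterior neurons was 0.0196, close to the 0.0226 of anterior and 0.0149 of mixed neurons, and the difference from glia was log2 -5.55. Ccnd3 was lower by log2 -1.32 ± 0.22 (edgeR adjusted p = 1.43e-08), and Cdk4 by -0.53 ± 0.22 (edgeR adjusted p = 0.0321). The call on Cdk4 was lost with DESeq2, without the filter on low counts, without the library block, and without the anterior or the posterior library, where its adjusted p lay between 0.0618 and 0.256.

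Macrophages differed from neurons in 5 of the 8 genes, 2 higher and 3 lower in neurons, where 38.7% of 13490 genes passed (23.7% higher, 15% lower). Ccnd1 was 1.45, 1.51 and 1.71 in neurons and 1.29, 1.13 and 1.07 in macrophages, higher in neurons of all 3 libraries but without passing (log2 0.44 ± 0.34, edgeR adjusted p = 0.324). Ccnd2 was lower in neurons by log2 -4.37 ± 0.55 (edgeR adjusted p = 2.04e-14). Over the alternatives, neurons without the barcodes of few neuronal markers among them, its log2 difference ran from -5.13 to -4.08. Ccnd3 was 0.264, 0.247 and 0.202 in neurons, against 0.235, 0.705 and 0.671 in macrophages, so that it was lower in neurons of the posterior and mixed libraries but not of the anterior one (log2 -1.29 ± 0.44, edgeR adjusted p = 0.0116). This is a call that rests on 2, 20 and 10 UMIs in the macrophages of the anterior, posterior and mixed libraries and that was lost under 5 of the alternatives described at the end. Cdk4 and Cdkn1b did not pass.

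**Figure D2:**
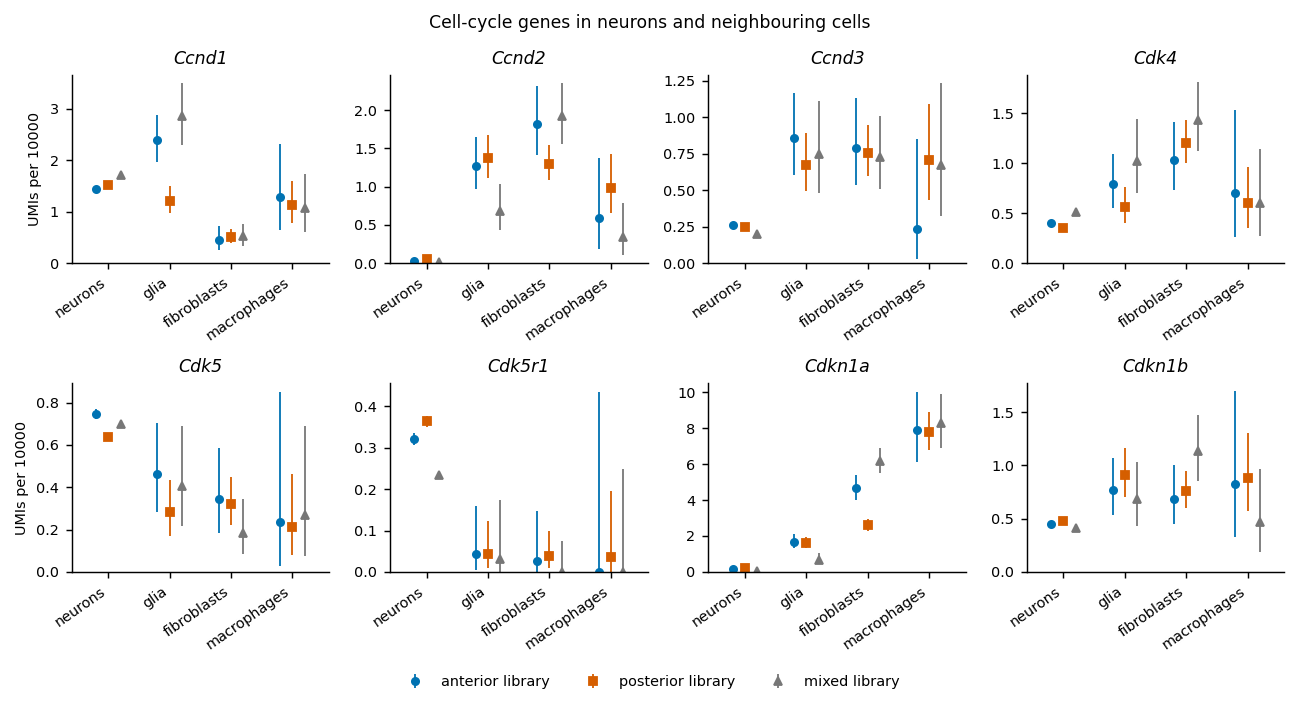
Level of the 8 genes (vertical axes, UMIs per 10000, each from 0) in neurons, glia, fibroblasts and macrophages. Each point is the sum over the cells of 1 library, and bars are exact 95% Poisson intervals for counting error. The points of neurons sit above those of all other classes for Cdk5 and Cdk5r1 and below them for Ccnd2 and Cdkn1a.

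Cdk4 lies at chr10:127063534-127067920 on the plus strand of GRCm38, where its exons overlap those of Tspan31 on the opposite strand. Its promoter window, the 250 bases before the transcript start as RefSeq gives it for GRCm38.p6 (chr10:127063285-127063534, plus strand), is shown because it holds 4 copies of the E-box CACGTG, the hexamer bound by MYC and related factors, which are in capitals. The E-box was found in 6.02% of 32851 such windows and in at least 4 copies in 7 of them (0.0213%).
Cdk4: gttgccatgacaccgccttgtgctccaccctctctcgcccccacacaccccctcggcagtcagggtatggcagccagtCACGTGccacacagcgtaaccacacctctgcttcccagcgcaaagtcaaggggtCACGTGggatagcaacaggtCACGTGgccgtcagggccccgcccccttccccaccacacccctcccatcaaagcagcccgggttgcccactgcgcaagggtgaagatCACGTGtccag
A match describes the letters only. The kinase was detected in all classes of neuron, at 0.405 (0.388 to 0.422), 0.348 (0.335 to 0.361) and 0.508 (0.495 to 0.521) in anterior, posterior and mixed neurons, so that the libraries differed beyond counting error. The other kinase that D-type cyclins bind, Cdk6, was nearly absent from neurons, at 0.00809, 0.0135 and 0.00987, against 0.702, 0.801 and 0.808 in glia (log2 -5.85 ± 0.30, edgeR adjusted p = 6.20e-80). Cdk2, the partner of the E-type cyclins, had 6, 11 and 15 UMIs in all neurons of the 3 libraries.

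Cdk5 and Cdk5r1 were the 2 members that were higher in neurons than in glia, fibroblasts and macrophages alike. Cdk5 lies at chr5:24418241-24423530 on the minus strand of GRCm38, and Cdk5r1 at chr11:80477023-80481184 on the plus strand. Cdk5 was 0.744, 0.638 and 0.698 in anterior, posterior and mixed neurons, against 0.461, 0.281 and 0.404 in glia, and the groups did not overlap (log2 1.24 ± 0.26, edgeR adjusted p = 4.24e-06). Set against fibroblasts, where Cdk5 was 0.344, 0.320 and 0.182, the log2 difference was 1.39 ± 0.26 (edgeR adjusted p = 1.42e-05). It was 1.54 ± 0.49 against macrophages (edgeR adjusted p = 0.00651). Cdk5r1, the activator, was 0.321, 0.364 and 0.233 in neurons and 0.0439, 0.0422 and 0.0311 in glia, which held 2, 3 and 1 UMIs (log2 3.28 ± 0.44, edgeR adjusted p = 5.96e-13). Cdk5r1 also had few UMIs in the other 2 classes compared here: fibroblasts had 1, 4 and 0, and macrophages had 0, 1 and 0. The macrophages held 85005, 283668 and 149023 UMIs of all genes, so a count of 0 there limits the level only loosely.

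Other neuronal genes were also present in glial barcodes, at a median of 8.15%, 10.0% and 2.82% of their level in anterior, posterior and mixed neurons. Those shares of the neuronal Cdk5r1 level come to 0.0261, 0.0364 and 0.00657, set beside the 0.0439, 0.0422 and 0.0311 measured in glia. The same shares of the neuronal Ccnd1 level come to 0.118, 0.151 and 0.0483, set beside 2.39, 1.21 and 2.86 in glia. The Ccnd1 of glial barcodes lay far above such a share, and the few Cdk5r1 UMIs did not lie beyond it within their counting intervals. The other activator, Cdk5r2, followed the same pattern as Cdk5r1, at 0.475, 0.574 and 0.266 in neurons and 0.132, 0.0843 and 0 in glia (log2 2.85 ± 0.36, edgeR adjusted p = 2.53e-14). Capn1, a calpain of the family that cleaves the activators, was higher in neurons than in glia, with 0.532, 0.532 and 0.343 in neurons and 0.219, 0.155 and 0.0933 in glia (log2 1.90 ± 0.31, edgeR adjusted p = 2.14e-09).

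Both Cip/Kip inhibitors were lower in neurons than in glia and fibroblasts, and Cdkn1a was lower than in macrophages as well. Cdkn1a lies at chr17:29090976-29100727 on the plus strand of GRCm38 and has an upstream and a downstream transcript start. Both promoter windows are shown, because the first holds the palindrome at the core of a p53 element and the second does not. In the upstream window (chr17:29090729-29090978, plus strand) capitals mark the 20 bases made of the core, CATG on both sides of 6 bases of any kind, and 3 bases beyond each end. In the downstream window (chr17:29093519-29093768, plus strand) they mark the GC box GGGCGG, the letters bound by SP1. The core was found in 161 of 32851 windows (0.490%) and the GC box, on either strand, in 32.7%.
Cdkn1a, upstream start: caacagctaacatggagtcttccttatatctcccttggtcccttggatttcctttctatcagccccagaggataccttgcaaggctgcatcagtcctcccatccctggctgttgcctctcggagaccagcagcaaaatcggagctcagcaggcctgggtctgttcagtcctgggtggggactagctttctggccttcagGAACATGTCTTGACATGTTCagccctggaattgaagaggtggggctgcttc
Cdkn1a, downstream start: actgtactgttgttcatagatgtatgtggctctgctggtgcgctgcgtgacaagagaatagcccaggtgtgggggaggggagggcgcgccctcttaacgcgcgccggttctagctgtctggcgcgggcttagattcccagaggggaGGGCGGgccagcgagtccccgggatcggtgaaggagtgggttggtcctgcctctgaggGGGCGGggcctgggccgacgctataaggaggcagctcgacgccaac
The level of Cdkn1a was 0.152 (0.141 to 0.163), 0.20 (0.191 to 0.210) and 0.0687 (0.0640 to 0.0736) in anterior, posterior and mixed neurons, against 1.67, 1.63 and 0.684 in glia (log2 -2.93 ± 0.22, edgeR adjusted p = 6.03e-39). Fibroblasts stood at 4.65, 2.59 and 6.16 (log2 -4.91 ± 0.73 for neurons, edgeR adjusted p = 0.0186) and macrophages at 7.88, 7.79 and 8.32 (log2 -5.94 ± 0.32, edgeR adjusted p = 4.11e-74). The order from neurons to glia, fibroblasts and macrophages was the same in all 3 libraries, and the intervals of neurons and of the other classes did not overlap. Without the barcodes of few neuronal markers the Cdkn1a level in neurons was 0.147, 0.180 and 0.0664.

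Cdkn1b lies at chr6:134920401-134925513 on the plus strand of GRCm38, and its promoter window (chr6:134920151-134920400, plus strand) is shown with its 2 CCAAT boxes, the letters bound by NF-Y, in capitals. A CCAAT box, on either strand, was found in 33.8% of the 32851 windows.
Cdkn1b: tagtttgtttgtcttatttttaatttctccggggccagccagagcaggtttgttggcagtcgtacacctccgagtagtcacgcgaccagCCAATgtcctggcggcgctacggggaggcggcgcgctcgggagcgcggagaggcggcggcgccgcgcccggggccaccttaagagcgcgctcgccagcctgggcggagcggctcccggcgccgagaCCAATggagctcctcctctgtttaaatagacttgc
Cdkn1b was the more abundant of the inhibitors in neurons, at 0.446, 0.482 and 0.408 in anterior, posterior and mixed neurons, and the less abundant one in fibroblasts and macrophages. It was 0.687, 0.757 and 1.13 in fibroblasts (log2 -0.80 ± 0.22 for neurons, edgeR adjusted p = 0.00176). In glia it was 0.768, 0.913 and 0.684 (log2 -0.49 ± 0.23, edgeR adjusted p = 0.048), a call that was lost under 6 alternatives, DESeq2 among them, with adjusted p between 0.0828 and 0.360. In macrophages it was 0.823, 0.881 and 0.470 (log2 -0.67 ± 0.42, edgeR adjusted p = 0.197). Promoter windows are thus shown for Cdk4, Cdkn1a and Cdkn1b, and the other 5 members are named without a sequence.

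Of the other inhibitors, Cdkn2d (p19INK4d), which binds Cdk4 and Cdk6, was the most abundant in neurons and higher there than in the other classes. Its level was 1.68, 1.31 and 1.92 in anterior, posterior and mixed neurons, close to that of Ccnd1, against 1.51, 1.26 and 0.404 in glia, where only the mixed library stood clearly apart (log2 0.93 ± 0.24, edgeR adjusted p = 0.00027). Fibroblasts had 0.476, 0.505 and 0.445 and macrophages 0.353, 0.353 and 0.671, and the log2 difference was 1.85 against both (edgeR adjusted p = 7.37e-09 and 1.41e-05). Cdkn2c, also of the INK4 family, was lower in neurons than in glia, with 0.0170, 0.0179 and 0.0282 in neurons and 0.636, 0.478 and 1.09 in glia (log2 -4.71 ± 0.29, edgeR adjusted p = 3.78e-56). Cdkn1c (p57), the third Cip/Kip gene, was lower than in fibroblasts by log2 -7.03 ± 0.28 (edgeR adjusted p = 4.46e-22).

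The lists of the surrounding pathway were chosen by function, and their counts stand beside the 58.9% of all genes that passed against glia (32.9% higher, 26% lower). Of 14 tested DNA replication genes, 7 were lower and 1 higher in neurons than in glia (median log2 -0.96, against 0.21 over all genes), with Mcm3, a subunit of the replicative helicase, at 10, 53 and 12 UMIs in all anterior, posterior and mixed neurons. The posterior count includes the barcodes of few neuronal markers. A gene that passes the filter on low counts mainly through glia, as Mcm3 did, tends to be lower in neurons by that choice. The count and median of this list are therefore no separate check of replication. Of 15 tested genes of the RB and E2F pathway, 4 were higher and 4 lower than in glia (median -0.26). Of 12 tested p53 target genes, 3 were higher and 5 lower in neurons than in glia (median -0.32). Zmat3, which encodes a p53-induced RNA-binding protein, was among the higher ones, at 0.947, 1.01 and 0.699 in neurons and 0.219, 0.281 and 0.342 in glia (log2 2.02 ± 0.27, edgeR adjusted p = 6.36e-13). Btg2, an antiproliferative gene that p53 and immediate early signals induce, was lower, at 0.562, 0.945 and 0.435 in neurons and 9.12, 6.93 and 1.49 in glia (log2 -2.63 ± 0.25, edgeR adjusted p = 3.24e-22). Cdkn1a and Zmat3, both p53 targets, thus stood on opposite sides of the comparison. Of 13 tested genes that act in the degradation of cyclin D, p21 and p27, 5 passed against glia, a smaller share than over all genes, and these 5 were higher in neurons (median 0.03), among them Fbxo31, an F-box protein that directs cyclin D to degradation (log2 1.90 ± 0.30, edgeR adjusted p = 1.30e-09).

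Mki67, which is transcribed in dividing cells, was used as the check of division. At least 1 Mki67 UMI was found in 6 of 1315 anterior neurons (0.456%, exact Clopper-Pearson 95% interval 0.168% to 0.99%), in 14 of 1447 posterior (0.968%, 0.530% to 1.62%) and in 8 of 1998 mixed neurons (0.40%, 0.173% to 0.787%). In the anterior and mixed libraries none of these neurons had more than 1 UMI. Of the posterior neurons, 5 had at least 2 UMIs, and 4 of those 5 were among the barcodes of few neuronal markers. Over all libraries, 7 of the 62 barcodes with few neuronal markers had Mki67, with 54 UMIs, while 21 of the 4698 other neurons had it, with 25 UMIs and 1 cell with at least 2. That cell was a posterior Ddah1 neuron with 5 UMIs, and it was among the 3% of barcodes with the highest doublet scores.

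Macrophages had Mki67 in 1 of 15 anterior barcodes (6.67%), 4 of 41 posterior (9.76%) and 2 of 25 mixed ones (8%), at a far lower depth. With every cell thinned to 2000 UMIs, Mki67 was left in 0 anterior, 1 posterior and 0 mixed neurons (0%, 0.0691% and 0%). At that depth a count of 0 allows up to 0.228% of anterior and 0.150% of mixed neurons to hold a UMI, which limits UMIs found at 2000 UMIs per cell and not the cells that hold Mki67 at full depth. The level of Mki67 was lower in neurons than in macrophages by log2 -7.90 ± 1.01 (edgeR adjusted p = 4.23e-07), and by -9.03 ± 0.92 without the barcodes of few neuronal markers (edgeR adjusted p = 3.05e-21). It did not pass against glia (log2 -1.71 ± 1.42, edgeR adjusted p = 0.297), and without those barcodes it had too few UMIs to be tested there. Against macrophages, Mki67 passed the filter on low counts mainly through the macrophages, which favours a lower level in neurons by that choice. The macrophages held 2, 7 and 25 Mki67 UMIs in the anterior, posterior and mixed libraries, with 15 in 1 mixed barcode. The difference of Mki67 from macrophages is therefore no separate check of division. Of the 16 tested division genes, 13 passed against macrophages, all of them lower in neurons (median log2 -5.08, against 0.65 over all genes). Over all genes 15% were lower in neurons in that comparison. Only 10 division genes had enough UMIs to be tested against glia, and 9 against fibroblasts. Genes that pass the filter on low counts through macrophages alone tend to be lower in neurons by that choice. The 13 are therefore no separate check of division. Against glia, 2 of 10 were lower and 1 was higher.

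Ccnd1 was lower in Ddah1 neurons than in Npy neurons. Its level was 1.08 (0.980 to 1.18), 1.25 (1.21 to 1.29) and 1.02 (0.980 to 1.07) in anterior, posterior and mixed Ddah1 neurons, against 1.53 (1.5 to 1.57), 1.71 (1.68 to 1.75) and 1.88 (1.85 to 1.90) in Npy neurons. The classes did not overlap in any library, and Ccnd1 was 1.56-fold lower in Ddah1 neurons (log2 -0.64 ± 0.08, n = 3 libraries, edgeR adjusted p = 2.71e-05). Cdk5r1 was lower too, with levels of 0.206, 0.316 and 0.203 in Ddah1 neurons and 0.332, 0.397 and 0.240 in Npy neurons (log2 -0.38 ± 0.07, edgeR adjusted p = 3.67e-05). The other 6 members did not pass. Both calls, 2 of 8 members, stand beside 32.1% of 13655 genes that passed between these classes (15.7% higher, 16.4% lower), which is no larger share. Leaving the library out of the model, which ignores that the classes share a library, ended both calls (edgeR adjusted p = 0.0791 for Ccnd1 and 0.442 for Cdk5r1).

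**Figure D3:**
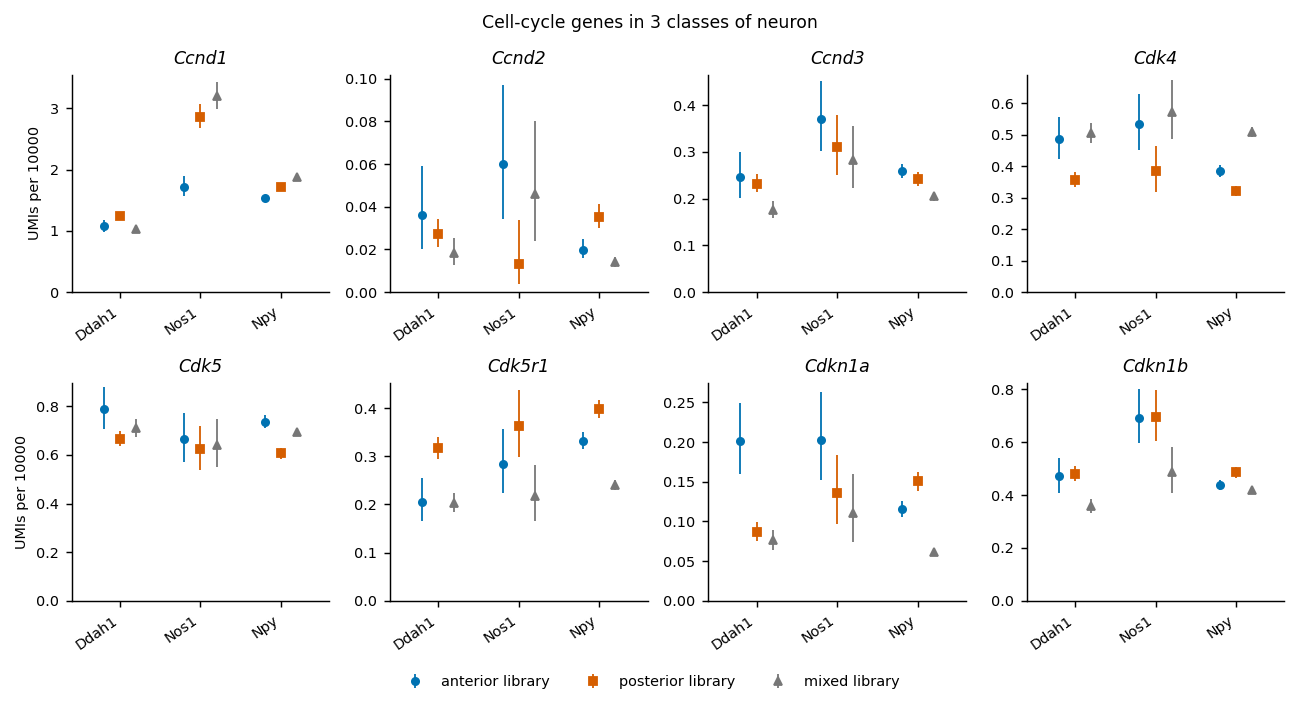
Level of the 8 genes (vertical axes, UMIs per 10000, each from 0) in Ddah1, Nos1 and Npy neurons. Each point is the sum over the cells of 1 library, with exact 95% Poisson intervals for counting error. Of these 3 classes Ddah1 neurons have the lowest Ccnd1 in all 3 libraries, and Nos1 neurons of the posterior and mixed libraries reach 2.87 and 3.20.

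Among the members that did not pass between Ddah1 and Npy neurons, Cdk5 was nearly level, at 0.788, 0.666 and 0.709 in Ddah1 neurons and 0.736, 0.606 and 0.694 in Npy neurons (log2 0.07 ± 0.06, edgeR adjusted p = 0.435). The kinase and its activator therefore stood in different relations to the classes, although that difference was not tested. Cdkn1a had no common direction: it was 0.201, 0.0870 and 0.0762 in Ddah1 neurons and 0.116, 0.150 and 0.0609 in Npy neurons (log2 -0.05 ± 0.44, edgeR adjusted p = 0.959). It was higher in Ddah1 neurons of the anterior and mixed libraries and lower in those of the posterior one, and without the posterior library the log2 difference was 0.50 (edgeR adjusted p = 0.00369). Cdkn1b was 0.472, 0.481 and 0.359 in Ddah1 neurons and 0.438, 0.486 and 0.421 in Npy neurons (log2 -0.08 ± 0.07, edgeR adjusted p = 0.375).

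Ccne1 and Cdk14, which are no members of the set, had larger log2 differences between these classes than any of the 8. Ccne1, the E-type cyclin that acts after cyclin D at the entry into S phase, was higher in Ddah1 neurons, at 0.223, 0.251 and 0.302, against 0.128, 0.114 and 0.134 in Npy neurons (log2 1.07 ± 0.08, edgeR adjusted p = 1.09e-17). Ccnd1 and Ccne1 thus ran in opposite directions in all 3 libraries. Cdk14, a kinase that pairs with cyclin Y, was lower in Ddah1 neurons, at 0.0551, 0.0790 and 0.0635, against 0.190, 0.230 and 0.188 in Npy neurons (log2 -1.59 ± 0.10, edgeR adjusted p = 4.21e-22). Of 11 tested p53 target genes, 3 were higher and 2 lower in Ddah1 neurons, beside 32.1% of all genes (15.7% higher, 16.4% lower). The list thus had no common direction. Gadd45a, a stress-induced growth arrest gene, was higher by log2 0.45 ± 0.06 (edgeR adjusted p = 1.71e-08), and Zmat3 was lower by -0.35 ± 0.06 (edgeR adjusted p = 2.13e-06).

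Nos1 neurons had the highest Ccnd1 of the 3 classes in the posterior and mixed libraries. The level was 1.72 (1.57 to 1.89), 2.87 (2.68 to 3.06) and 3.20 (2.99 to 3.43) in anterior, posterior and mixed Nos1 neurons, against 1.53, 1.71 and 1.88 in Npy neurons. In the anterior library the ratio was 1.12 (1.02 to 1.23), in the posterior 1.67 (1.56 to 1.79) and in the mixed library 1.71 (1.59 to 1.83), and over the 3 libraries the difference was 1.45-fold (log2 0.53 ± 0.10, edgeR adjusted p = 0.00596). Cdkn1b was higher in the same neurons, at 0.693, 0.697 and 0.489, against 0.438, 0.486 and 0.421 in Npy neurons (log2 0.44 ± 0.09, edgeR adjusted p = 0.000557). A D-type cyclin and a Cip/Kip inhibitor were thus both higher in Nos1 neurons. Ccnd3 was 0.371, 0.310 and 0.283 in Nos1 neurons, against 0.259, 0.242 and 0.205 in Npy neurons (log2 0.41 ± 0.11, edgeR adjusted p = 0.0063).

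These 3 of 8 members stand beside 12.6% of 13028 genes that passed between Nos1 and Npy neurons (6.42% higher, 6.22% lower). The median log2 difference of the 8 was 0.42, against -0.02 over all genes. Nos1 neurons were few, 55 to 84 cells in a library, and each call depended on the libraries and settings. Ccnd1 was not called without the mixed or without the posterior library (edgeR adjusted p = 0.219 and 0.143), nor with library totals in place of TMM factors (0.0821), and with a Nos1 limit of 2 its adjusted p was 0.204. With library totals the calls over all genes were 1014 higher and 633 lower, in place of 837 higher and 810 lower. Cdkn1b was not called without the anterior library (0.0597), and Ccnd3 not without the anterior (0.135) or the posterior library (0.0505), with DESeq2 (0.0854), or in neurons with little glial RNA (0.308), although its log2 difference lay between 0.34 and 0.45 under all 12 alternatives. None of the 3 was called without the library block (edgeR adjusted p = 0.638, 0.481 and 0.539 for Ccnd1, Cdkn1b and Ccnd3). Of the 11 tested p53 target genes, Btg2 (log2 0.57 ± 0.09, edgeR adjusted p = 2.56e-06) and Gadd45a (log2 0.49 ± 0.09, edgeR adjusted p = 6.50e-05) were higher in Nos1 neurons, beside the 12.6% of all genes. The other 9 did not pass. Nos1 neurons with under 1 UMI of the glial markers per 10000 were 32 of 84 anterior, 27 of 61 posterior and 24 of 55 mixed cells. Among Npy neurons they were 775 of 1047, 545 of 760 and 1021 of 1504. Btg2 was lower in neurons than in glia by log2 -2.63, and the part of glial RNA in these differences was not tested.

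Within each class Ccnd1 varied widely between cells. In Npy neurons the median cell of the anterior, posterior and mixed libraries had 1.39, 1.48 and 1.86 UMIs of Ccnd1 per 10000, and the lower and upper quartiles were 0.373 and 2.53, 0.389 and 2.86, and 0.843 and 3.09. The share of cells with at least 3 UMIs per 10000 was 4.85%, 6.42% and 2.68% in Ddah1 neurons, 16.7%, 47.5% and 52.7% in Nos1 neurons, and 16.1%, 22.5% and 26.9% in Npy neurons. High Ccnd1 was thus rare in Ddah1 neurons in every library. After thinning each Npy neuron to 10000 UMIs, the variance of the Ccnd1 count was 2.21, 2.32 and 1.95 times its mean, where counting alone gives a ratio of 1, and for Cdk5 it was 1.01, 1.12 and 0.998 times its mean. The spread of Cdk5 between neurons was therefore close to that of counting, and the spread of Ccnd1 was wider.

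**Figure D4:**
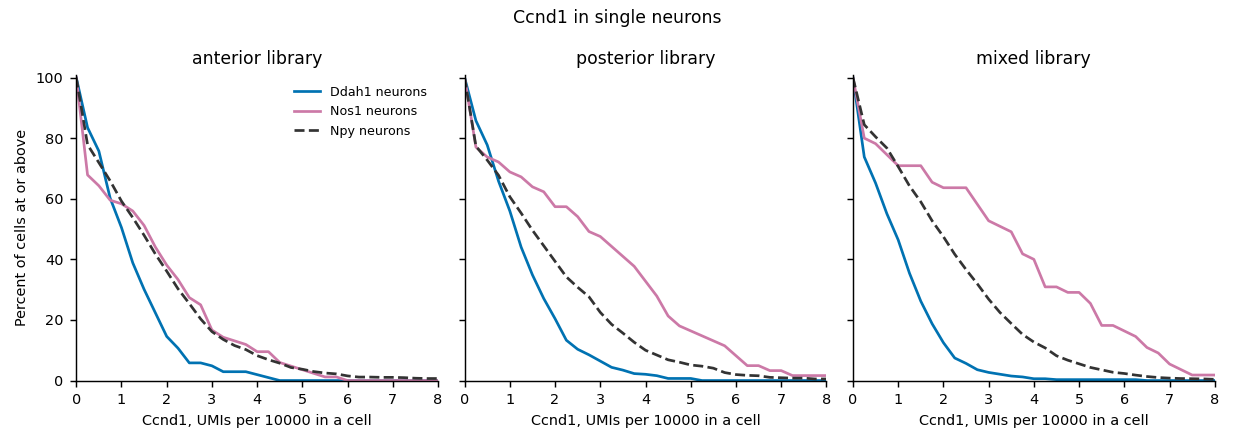
Percent of cells (vertical axis) at or above a given Ccnd1 level (horizontal axis, UMIs per 10000 in a cell) for Ddah1, Nos1 and Npy neurons of each library. At 3 UMIs per 10000 the Ddah1 curve is at 2.68% to 6.42%, and the Nos1 curve of the posterior and mixed libraries is at 47.5% and 52.7%.

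Npy neurons with much Ccnd1 were also set beside those with little, as a description without a test, since these cells were picked by the measured gene. Cells at 3 or more UMIs of Ccnd1 per 10000 numbered 169, 164 and 404 in the anterior, posterior and mixed libraries, and cells under 0.5 numbered 293, 206 and 294. The cells of high Ccnd1 were shallower, with a median of 33894, 51805 and 48744 UMIs, against 41785, 62327.5 and 72584. Cdkn1b was 0.609, 0.642 and 0.518 in the cells of high Ccnd1 and 0.379, 0.402 and 0.323 in those of low Ccnd1, while Cdkn1a was 0.0671, 0.0947 and 0.0510, against 0.146, 0.268 and 0.0914. The inhibitors thus lay on opposite sides in each library. Cdk4 was nearly level, at 0.374, 0.312 and 0.534, against 0.361, 0.300 and 0.470. Barcodes with few neuronal markers were left out here. Among 2806 genes, ranked by the smallest ratio of the 3 libraries, Bex1 came first towards high Ccnd1, at 2.07, 2.03 and 2.57, against 0.730, 0.628 and 1.00, and Edn3, the gene of endothelin 3, towards low Ccnd1, at 0.112, 0.0413 and 0.0160, against 0.666, 0.607 and 0.557. The neuropeptide gene Cartpt was lower in cells of high Ccnd1 as well, at 17.1, 14.3 and 13.8, against 43.7, 38.7 and 46.2. Apoe was higher in them, at 7.96, 6.99 and 8.47, against 3.95, 2.28 and 4.26. Ccnd1 was higher in glia than in neurons of the anterior and mixed libraries, and the part of other cells' RNA in these differences was not tested.

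A smaller group of neurons met the limits of both Npy and Ddah1, and its Cdkn1a was above that of Ddah1, Nos1 and Npy neurons in the anterior and posterior libraries. It numbered 61, 116 and 83 cells, was noticed in the data, and is described without a test. Its Cdkn1a level was 0.390, 0.635 and 0.0952 in the anterior, posterior and mixed libraries, and its Ccnd1 level was 0.532, 0.885 and 0.956. Cdkn1b, at 0.324, 0.382 and 0.345, was below that of Ddah1 and of Npy neurons in each library. These cells held a median of 41253, 67964.5 and 64356 UMIs, and none of the barcodes with few neuronal markers was among them. Without the 3% of barcodes with the highest doublet scores, Cdkn1a was 0.383, 0.666 and 0.0943 in the 56, 109 and 73 cells that remained. Atf3, taken up below, ran over the libraries from 0.0952 to 0.861 in the neurons with both Npy and Ddah1. It ran from 0.0843 to 0.625 in Ddah1, 0.115 to 0.660 in Nos1 and 0.0865 to 0.369 in Npy neurons. Its part in the Cdkn1a level was not tested. The still fewer neurons under the limits of Npy, Ddah1 and Nos1 (20, 74 and 20 cells) had more Cdkn1a again, at 0.905, 1.13 and 0.506, and their fibroblast markers summed to 0.102, 23.8 and 3.13. Most of the posterior ones were barcodes of few neuronal markers. Without such barcodes 18, 29 and 18 cells were left, and the Cdkn1a level of those is not given here.

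Neurons with Atf3, a factor that is induced by axon injury and by the stress of dissociation, held more Cdkn1a and more Ccnd2. They were taken as neurons with at least 1 UMI of Atf3 per 10000, and there were 143 anterior, 220 posterior and 57 mixed cells. Cdkn1a was 0.431 (0.375 to 0.494), 0.695 (0.645 to 0.748) and 0.570 (0.482 to 0.670) in Atf3 neurons, against 0.123, 0.128 and 0.0572 in the other neurons. The groups did not overlap, and the difference was 5.52-fold (log2 2.47 ± 0.28, n = 3 libraries, edgeR adjusted p = 0.017). Ccnd2 was 0.135, 0.146 and 0.112 in Atf3 neurons, against 0.0119, 0.0408 and 0.0137 in the other neurons, 6.24-fold higher (log2 2.64 ± 0.32, edgeR adjusted p = 0.00196). The other 6 members did not pass: Ccnd1, for example, was 1.53, 1.21 and 1.79 in Atf3 neurons and 1.44, 1.55 and 1.71 in the others (log2 -0.11 ± 0.10, edgeR adjusted p = 0.631). The 2 members that passed stand beside 8.61% of 13864 genes (7.38% higher, 1.23% lower).

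**Figure D5:**
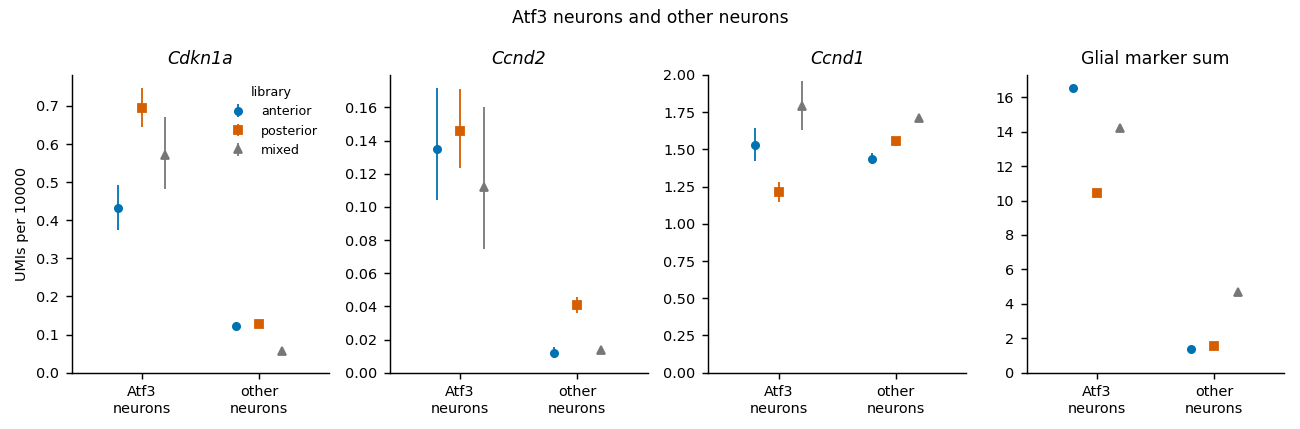
Level of Cdkn1a, Ccnd2 and Ccnd1 and summed level of the 9 glial markers (vertical axes, UMIs per 10000, each from 0) in Atf3 neurons and in the other neurons. Each point is 1 library, and bars on the 3 genes are exact 95% Poisson intervals for counting error. Cdkn1a is at 0.431 to 0.695 in Atf3 neurons and at 0.0572 to 0.128 in the others, without overlap.

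RNA of other cells moved with Atf3. Over the libraries Atf3 itself was 2.42 to 22.6 in glia, 6.69 to 7.98 in fibroblasts and 10.9 to 13.1 in macrophages. It was 2.78 to 3.71 in Atf3 neurons and 0.0283 to 0.132 in the other neurons. A neuron barcode can therefore also reach the limit through RNA of such cells, and how many did was not tested. All 9 glial markers were present, summing to 16.6, 10.4 and 14.2 in Atf3 neurons and to 1.38, 1.56 and 4.68 in the other neurons of the anterior, posterior and mixed libraries. The fibroblast markers summed to 0.669, 4.26 and 1.51 in Atf3 neurons and to 0.161, 0.274 and 0.0643 in the others, with 1, 0 and 1 of 8 markers at 0 in Atf3 neurons. The macrophage markers summed to 0.192, 2.62 and 0.293 in Atf3 neurons and to 0.182, 0.315 and 0.205 in the others, with 6, 0 and 3 of 8 markers at 0 in Atf3 neurons. Of the barcodes with few neuronal markers, 4, 27 and 1 were Atf3 neurons. Without all such barcodes, in a setting chosen after seeing the data, the log2 difference was 2.27 for Cdkn1a (edgeR adjusted p = 0.0118) and 2.61 for Ccnd2 (7.15e-05), and Ccnd2 was 0.126, 0.0565 and 0.0781 in Atf3 neurons, against 0.0119, 0.0143 and 0.0134 in the others. In neurons with under 1 UMI per 10000 of the glial markers, of which 27, 80 and 26 were Atf3 neurons, it was 3.00 for Cdkn1a (edgeR adjusted p = 1.19e-08) and 3.45 for Ccnd2 (0.00931), but 1, 24 and 1 of those Atf3 neurons had few neuronal markers. With both limits applied, also chosen after seeing the data, 26, 56 and 25 Atf3 neurons were left and neither gene was called. Cdkn1a was then 0.582, 1.20 and 0.0886 in Atf3 neurons, against 0.117, 0.132 and 0.0406 in the others (log2 2.54 ± 0.39, edgeR adjusted p = 0.150). Ccnd2 had 2, 3 and 8 UMIs in those Atf3 neurons, a level of 0.0215, 0.00936 and 0.0709, against 0.00927, 0.00726 and 0.00240 in the others (log2 2.25 ± 0.83, edgeR adjusted p = 0.590). The part of other cells' RNA in these differences was not tested further. The call on Cdkn1a was lost with library totals (0.0503) and in neurons with at least 30000 UMIs (0.127), and that on Ccnd2 without the mixed library (0.0913).

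The counts that follow stand beside the 8.61% of all genes that passed in Atf3 neurons (7.38% higher, 1.23% lower). Of 5 tested other inhibitors 2 passed, Cdkn2b and Cdkn2c, both higher in Atf3 neurons. Cdkn2b had 5, 10 and 3 UMIs in Atf3 neurons and 13, 17 and 17 UMIs in the others (log2 2.15 ± 0.57, edgeR adjusted p = 0.0366). Cdkn2c was 0.0818, 0.0505 and 0.0694 in Atf3 neurons, against 0.0102, 0.0131 and 0.0272 in the others (log2 2.07 ± 0.32, edgeR adjusted p = 0.00194). Of 12 tested p53 target genes 2 passed, both higher. Btg2 was 1.23, 2.06 and 1.52 in Atf3 neurons and 0.493, 0.782 and 0.410 in the others (log2 1.49 ± 0.10, edgeR adjusted p = 3.89e-06). Fas, the death receptor, had 5, 13 and 5 UMIs in Atf3 neurons and 5, 19 and 16 UMIs in the far more numerous others (log2 2.88 ± 0.58, edgeR adjusted p = 0.0082). Cdkn2b and Fas passed the filter on low counts through Atf3 neurons alone, and such genes tend to be higher there by that choice. Their calls, and the counts of passing genes that include them, are therefore no separate result on these lists. Cdkn2c, Btg2 and Fas were lower in neurons than in glia, by log2 -4.71, -2.63 and -4.10, and Atf3 neurons held more RNA of the glial markers. The part of glial RNA in their differences was not tested. Zmat3 and Phlda3, which are also p53 targets, did not pass (log2 -0.11 ± 0.09 and -0.14 ± 0.10, edgeR adjusted p = 0.547 and 0.493). Mki67 did not pass (log2 0.19 ± 0.77, edgeR adjusted p = 0.95).

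The regions could be compared through 1 library each, so no test was made and intervals cover counting error only. In Npy neurons the anterior level over the posterior one was 0.895 (0.865 to 0.926) for Ccnd1, 1.07 (0.978 to 1.16) for Ccnd3, 1.19 (1.11 to 1.28) for Cdk4 and 1.21 (1.15 to 1.28) for Cdk5. It was 0.836 (0.778 to 0.898) for Cdk5r1, 0.768 (0.681 to 0.866) for Cdkn1a and 0.901 (0.846 to 0.960) for Cdkn1b. These 7 ratios lay between 0.768 and 1.21, and the mixed library was outside the range of the regions for 6 of these 7 genes, all but Cdk5, with Cdk4 at 0.383 in anterior, 0.321 in posterior and 0.508 in mixed cells, and Cdkn1a at 0.116, 0.150 and 0.0609. The region ratio of Ccnd2 was 0.565 (0.427 to 0.743), and 1.17 (0.845 to 1.63) without the barcodes of few neuronal markers. Cdkn1a had the opposite order in Ddah1 neurons, at 0.201 among anterior and 0.0870 among posterior cells, a ratio of 2.31 (1.78 to 2.99).

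For each member the genes with the most similar levels were sought over the 18 sums of the 3 neuron classes, glia, fibroblasts and macrophages in 3 libraries, among 6830 genes. The measure was Pearson's r of log2(CPM + 10), given as a description, since the sums share libraries and differ in depth. Nearest to Ccnd1 were Hist3h2a (0.891), Stx7 (0.841) and Phf20 (0.835), and nearest to Cdk5 were Arl2 (0.972), Tsfm (0.972) and Mrpl11 (0.960). Ccnd2 lay nearest to Mmp14 (0.979), Ccnd3 to Sp3 (0.960), Cdk4 to Sec11a (0.934) and Cdkn1b to Actn4 (0.885). Cdkn1a lay nearest to the immediate early genes Ier3 (0.984) and Ier5 (0.983). Cdk5r1 stayed under the limit of 50 CPM in all sums and has no entry.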

How the data were processed

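The values are whole-number UMI counts per gene and barcode, deposited by the authors as 3 sparse matrices with no normalization. They were made with Cell Ranger on build mm10: per the file headers version 3.1.0 for the mixed and 6.1.2 for the anterior and posterior library, while the submitters' processing notes list Cell Ranger 7.1.0 and Seurat 4.4.2. The anterior and posterior matrices list 32285 features and the mixed one 31064. Genes were matched by identifier, and the difference in version bears on single genes between libraries but not on comparisons within a library. No authors' cell annotation was used.

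The 8 genes, the gene lists, the cell markers and the gates were chosen with earlier results of these data known. Neurons and their classes were gated as described with the results. Other cells needed at least 1000 UMIs, 500 genes, at most 20% mitochondrial UMIs, at least 3 detected markers of a class and more than of any other class. Barcodes in no gate (578 anterior, 1303 posterior, 505 mixed) were left out. Doublets were not removed in the main gates. Counts were summed per class and library and tested with edgeR 4.0.16 (R 4.3.3; quasi-likelihood test, TMM factors, filterByExpr, the library as a block since both classes of a pair come from the same library), with Benjamini-Hochberg adjustment over all genes tested and a threshold of 0.05. The procedure was tested on simulated data. Alternatives were DESeq2 1.42.0, library totals, no filter, no block, each library left out, other limits and gates, and, chosen after seeing the data, neurons with a neuronal marker sum of at least 20 per 10000, for Atf3 neurons also together with little glial RNA. Neurons with little glial RNA are those with under 1 UMI of the summed glial markers per 10000.

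The text names the 8 genes and Mki67 in each comparison, and other genes from the 2 highest and 2 lowest log2 fold changes of each list. Bex1, Cartpt, Edn3, Apoe and the neurons with both Npy and Ddah1 were chosen after their values were seen. Exact Poisson and Clopper-Pearson intervals cover counting error only, and a count of 0 was given a floor of 3 counts. Cells were thinned by drawing UMIs without replacement in Python 3.11.15 (numpy 2.4.6). Exons of Ccnd1, Ccnd2, Ccnd3, Cdk4 and Cdkn1a overlap genes on the opposite strand, and how strand was treated in counting is not given in the sources used here. Of the 50-base stretches at the 3′ end, 3.72% in Ccnd3 and 0.903% in Cdk4 also occur in other genes, among them the pseudogene Ccnd3-ps, so part of their reads may be shared or discarded.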

Additional observations from a re-analysis of the deposited data

Results flagged for a closer look

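Cdkn1a differed between Ddah1 and Npy neurons in opposite directions in the regional libraries. The log2 ratio of Ddah1 over Npy neurons was 0.80 for anterior and -0.79 for posterior cells, and the mixed library lay with the anterior one. Ccnd2 did so between Nos1 and Npy neurons, with a log2 ratio of 1.59 for anterior and -1.42 for posterior cells, from 16 and 4 UMIs in Nos1 neurons. With 1 library per region, neither difference between regions was tested.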

How the results depend on the processing

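Over the members in the 6 tested class comparisons and their alternatives, 532 values kept their direction and side of the threshold, 35 lost a call, 8 gained one and 25 changed sign. The ratios between regions and the Mki67 shares are not in these counts. Leaving the library out of the model (no replicate block) gave 0 called members between Ddah1 and Npy neurons and 0 between Nos1 and Npy neurons. With 1 library left out, the number of called members was 2 to 3 for Ddah1 against Npy neurons, 1 to 3 for Nos1 against Npy neurons, 5 to 7 for neurons against glia, 8 for neurons against fibroblasts, 4 to 5 for neurons against macrophages and 1 to 2 for Atf3 against other neurons. Atf3 neurons kept 1 call with library totals, without the mixed library and at 30000 UMIs, and 0 with little glial RNA and the marker sum together, where edgeR called 58 of 12759 genes (744 at an unadjusted p under 0.05). The median log2 ratio of the members between anterior and posterior Npy neurons was -0.16, and it was 0.16 in Ddah1 neurons and -0.0200 at a neuronal marker sum of at least 20. Mki67 was found in 0% of anterior, 0.0691% of posterior and 0% of mixed neurons thinned to 2000 UMIs, and in 0.503% of posterior neurons at that marker sum.

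Single values that changed sign were mostly small. For Ddah1 over Npy neurons (log2), Cdkn1a was 0.0907 with DESeq2, 0.0896 without the block and 0.0122 at an Npy limit of 8, and it ran from -0.32 to 0.50 with 1 library left out. Over the same omissions Ccnd2 ran from -0.10 to 0.53 and Cdkn1b from -0.15 to 0.00865, and Ccnd2 was -0.34 with little glial RNA. For Nos1 over Npy neurons with little glial RNA, Ccnd2 was -2.42, Cdk5 0.0558 and Cdkn1a -0.36. For neurons over glia, Ccnd1 was 0.0849 without the filter and 0.0191 with little glial RNA, and it ran from -0.30 to 0.20 with 1 library left out. For Atf3 over other neurons, Cdk5r1 was 0.00578 with library totals, 0.11 with little glial RNA and 0.00895 at the marker sum, Cdkn1b was 0.0189 with little glial RNA, and Ccnd1 was 0.0218 at an Atf3 limit of 2. With little glial RNA and the marker sum together, Ccnd3 was -0.15, Cdk5r1 0.20 and Cdkn1b 0.0294. With 1 library left out, Ccnd1 ran from -0.25 to 0.0262 and Cdk5 from -0.23 to 0.0468 there. For anterior over posterior neurons, Ccnd2 was 0.41 and Cdkn1a 1.21 in Ddah1 neurons, and Ccnd2 was 0.23 at the marker sum. The cause was not tested. Ccnd2, Mki67 and Cdk5r1 outside neurons rest on few UMIs, and macrophages on 15 to 41 barcodes.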
